A study of Gallus gallus with 12 samples.

Results

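Chromosome 25 is one of the microchromosomes of the chicken, and it carried the densest cover of methylation-enriched peaks of any chromosome in liver DNA of chickens labelled as resistant or as susceptible to ALV-J, the J subgroup of the avian leukosis retroviruses. Its members here are all peaks placed on chromosome 25 in the 6 deposited peak lists, 4181 of 356324 peaks (1.17%). The chromosome was chosen on its peak coverage, in kb per Mb, averaged over all 6 libraries. Coverage, peak density, width, score and sharing are therefore given as descriptions without a test, and only differences between the groups were tested.

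The peaks come from methylated DNA immunoprecipitation sequencing (MeDIP-seq), in which an antibody against methylated cytosine enriches fragments of genomic DNA before sequencing. The ALV-J-resistant group and the ALV-J-susceptible group held 3 immunoprecipitated libraries each, all from liver. Each library has an input library of the same sample number, against which its peaks were called. The labels used here state no line, age, sex or infection status, and do not say whether each sample is a separate bird. A p-value therefore sets a group difference against the spread between these samples only, and whether the samples are independent is unknown. Replicates 1 to 3 are named in order of deposition and are not paired across groups. The lists held 55599 to 64559 peaks, and read depth is unknown. In both groups replicate 3 stood apart, with 65.3 and 68.1 kb of peaks per Mb on chromosome Z against 29.9 to 31.8 in the other libraries. On chromosome W the same libraries had 50.2 and 53.3 kb per Mb against 179 to 189. Group differences are therefore also given for replicates 1 and 2 alone.

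In vertebrates, methyl groups sit mostly on cytosines of CpG dinucleotides. Much of the genome is methylated, while CpG islands at active promoters are usually free of the mark. An immunoprecipitation recovers more DNA where methylated CpGs are dense, so a peak reports both CpG density and methylation. Avian microchromosomes are small, gene-dense and rich in GC and CpG. Chicken chromosome 25 is known for the epidermal differentiation complex, a cluster of genes for proteins of the skin and its appendages. The chromosome holds many genes of feather and scale beta-keratins. In RefSeq's annotation of a later assembly, GRCg7b, chromosome 25 lists 386 genes, 339 of them protein-coding. They include EDBETA and EDSC of that complex, the feather keratin gene F-KER, and 9 S100 genes, which encode small calcium-binding proteins. Peak positions below are on galGal4, counted from 1, and cannot be assigned to these genes, because no annotation of galGal4 was used.

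On the measured length of chromosome 25, 2189401 bp to the end of its last peak, the resistant libraries had 732, 721 and 675 peaks in replicates 1 to 3. The susceptible libraries had 679, 720 and 654. Peaks covered 715, 724 and 744 kb in the resistant and 698, 722 and 757 kb in the susceptible libraries. Replicate 3 of each group had the fewest peaks and the longest cover of its group, and the groups overlapped in both measures. Per Mb, coverage was 332 ± 9.60 kb (SD, n = 6 libraries). The chromosome next in order was 16, with 223 kb per Mb, followed by 28 with 213 kb per Mb. Chromosome 25 also ranked 1 of 31 for mean peak width, by a margin smaller than the SD between libraries. Its mean was 1045 ± 69.8 bp, against 1033 ± 77.1 bp for LGE64, counted among the 31, and 1016 ± 71.5 bp for chromosome 28 (SD, n = 6 libraries each).

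Both a closer spacing and a greater width of peaks entered this coverage. Chromosomes 24 and 26, next to it in number, served as comparison; both are longer, at 6.32 and 5.32 Mb. Coverage on chromosome 25 was 2.34 times that on chromosome 24 (142 ± 6.47 kb per Mb) and 1.78 times that on chromosome 26 (187 ± 7.87 kb per Mb; SD, n = 6 libraries each). Peak density was 318 ± 14.4 per Mb, which was 1.77 times that on chromosome 24 and 1.46 times that on chromosome 26. Mean peak width was 1045 ± 69.8 bp, 1.32 times that on chromosome 24 and 1.22 times that on chromosome 26. In the plot of coverage, density and width, the lowest library on chromosome 25 lies above the highest library of the other two chromosomes in all 3 measures.

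**Figure D1:**
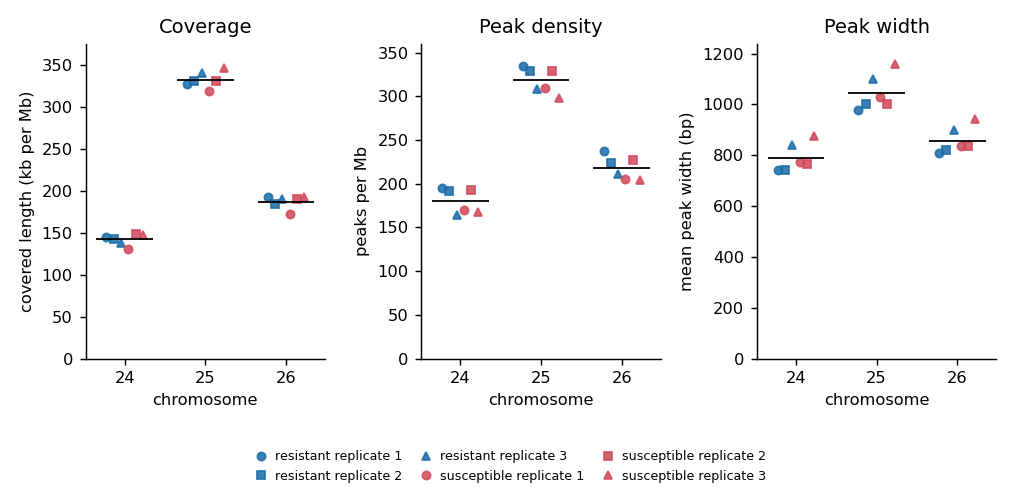
Covered length per Mb, peaks per Mb and mean peak width (bp) on chromosomes 24, 25 and 26, with 1 point per library (colour, group; symbol, replicate) and a line at the mean of the 6 libraries. Chromosome 25 has 319 to 346 kb of peaks per Mb, and chromosomes 24 and 26 have 131 to 192.

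Wide peaks made up much of the cover. Peaks over 2 kb numbered 63 to 84 per library, or 8.61 to 12.8% of the chromosome's peaks. They held 26.0 to 34.2% of its covered length. On chromosome 24 such peaks held 8.66 to 12.7% of the cover, and on chromosome 26 they held 12.9 to 18.3%. On chromosome Z they held 34.5% in resistant and 35.1% in susceptible replicate 3, more than on chromosome 25 in the same libraries. In the other libraries the share on Z was 19.6 to 21.7%. The highest share on chromosome 25 was that of susceptible replicate 3, followed by resistant replicate 3, at 30.7%. These 2 libraries also had the widest peaks on average, 1158 and 1102 bp, against 977 to 1028 bp in the other libraries.

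Cover was uneven along the chromosome, and the unevenness was alike in every library. Over the 21 full windows of 100 kb, the mean covered length of a window ran from 12.9 to 57.2 kb, with a median of 33.6 kb. The third window, from 200001 to 300000, was the most covered, at 52.1, 58.3 and 59.3 kb in resistant and 58.5, 55.7 and 59.0 kb in susceptible replicates 1 to 3. Resistant replicate 1 was the lowest there, and the other libraries lay close together. The windows from 1200001 to 1300000 and from 1700001 to 1800000 followed, with 46.1 ± 1.82 and 45.7 ± 1.39 kb (SD, n = 6 libraries). The last window, only 89.4 kb long and so not ranked here, had 44.4 ± 0.883 kb. In all, 8 full windows exceeded 40 kb, compared with 1 of 63 on chromosome 24 and 1 of 53 on chromosome 26.

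**Figure D2:**
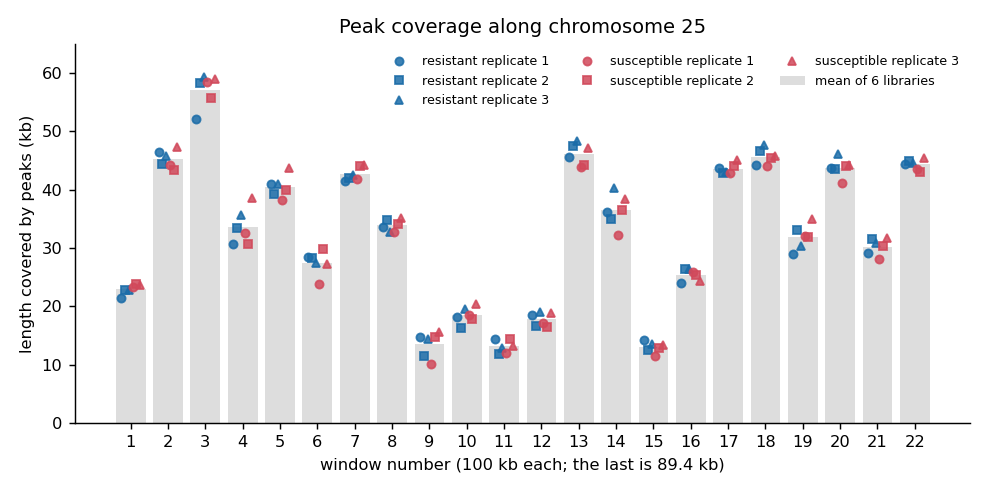
Length covered by peaks (kb) in each window of 100 kb along chromosome 25, numbered from its start; grey bars give the mean of the 6 libraries and points the single libraries. Windows 9 to 12 and window 15 have means under 20 kb, and window 3 has the highest mean, 57.2 kb.

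The least covered windows lay in the interior. Peaks covered 12.9 ± 0.959 kb from 1400001 to 1500000, 13.1 ± 1.13 kb from 1000001 to 1100000 and 13.5 ± 2.22 kb from 800001 to 900000 (SD, n = 6 libraries). Together with the windows starting at 900001 and 1100001, 5 windows stayed under 20 kb, 4 of them in a row. These 5 windows had 14.8 to 28 peaks per library, with a median of 21.5 per window, while the 8 windows over 40 kb had 32.7 to 55.7, with a median of 36.8. The median over windows of the mean peak width was 627 bp in the sparse and 1180 bp in the dense windows. An exception was the sparse window from 1100001 to 1200000, which held the fewest peaks, 14.8 per library, with a mean width of 1195 bp.

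The first window, from 1 to 100000, combined few peaks with great width. It held 15 peaks per library with a mean width of 1531 bp, the widest of any full window of the chromosome, and these covered 22.97 ± 0.869 kb (SD, n = 6 libraries). Its peaks had a median score percentile of 83.2, where the percentile is a peak's rank within its own library's list. Over the 21 full windows, Pearson's r between pairs of libraries was 0.979 to 0.993 for covered length. The windows of 1 chromosome share the same assembly, base composition and caller, so this is a description of how alike the profiles were. Across windows the mean covered length had r = 0.87 with the number of peaks and r = 0.58 with their mean width, which are both parts of it.

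Against the windows of the whole genome, chromosome 25 held 1 of the highest 20 windows and no full window under 12.9 kb. Its most covered window ranked 14 among the 5994 full windows with at least 1 kb of cover on average, and 8 of its windows were among the highest 100. Its least covered window, at 12.9 kb, ranked 936, while the median of those 5994 windows was 3.33 kb. On chromosome 24, 47 of 63 full windows had under 20 kb, and on chromosome 26 it was 35 of 53. Window coverage also varied less between libraries on chromosome 25. The SD over the 6 libraries was a median of 4.66% of the window's mean, against 10.8% on chromosome 24 and 8.38% on chromosome 26. Windows with less cover hold fewer peaks, and the part of that in these values was not tested.

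**Figure D3:**
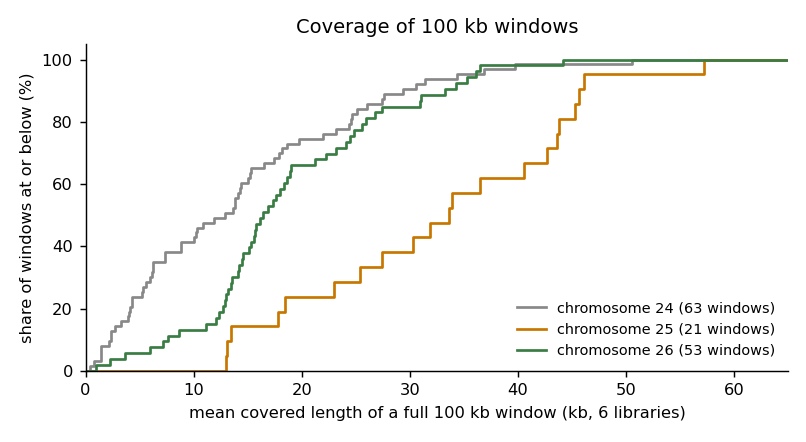
Share of full windows of 100 kb (vertical axis, %) at or below a given mean covered length (horizontal axis, kb, mean of 6 libraries) on chromosomes 24, 25 and 26. No full window of chromosome 25 lies below 12.9 kb, whereas the medians of chromosomes 24 and 26 are 12.9 and 16.4 kb.

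Stretches without a peak in any of the 6 lists were short on chromosome 25. The longest was 20.9 kb, from 380175 to 401048. It was followed by 19.96 kb from 1164283 to 1184238, 17.2 kb from 807850 to 825043, 14.2 kb from 670985 to 685145 and 14.0 kb from 1503588 to 1517541. The longest such stretch was 101.8 kb on chromosome 24 and 92.8 kb on chromosome 26. Stretches over 10 kb took up 9.50% of the measured length of chromosome 25, 35.4% of chromosome 24 and 24.1% of chromosome 26. In a peak list, unsequenced gaps of the assembly cannot be told apart from sequenced DNA without a peak. A missing peak does not show missing methylation either. With such stretches left out of the length, coverage was 367 ± 10.6 kb per Mb on chromosome 25, which was 1.67 times that on chromosome 24 and 1.49 times that on chromosome 26 (n = 6 libraries each).

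The widest single peaks lay at 3 places. The widest of all, 8768 bp from 1684840 to 1693607, was called in susceptible replicate 1, and the next, 8014 bp from 9357 to 17370, in susceptible replicate 3. The following ones were the same locus in several libraries. Around 1286153 to 1293806, every library had a single peak of more than 6 kb, with widths of 7539, 6022 and 6099 bp in resistant and 7541, 7455 and 7637 bp in susceptible replicates 1 to 3. In resistant replicates 2 and 3 the region was called as 2 peaks, which together covered 7481 and 7524 bp, so covered length overlapped between the groups. Each of these widest peaks had the score 3100.

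Overlapping peaks of the 6 lists were then merged into 709 regions. The longest region, 10898 bp from 1684840 to 1695737, was covered over 9999 to 10894 bp in every library, while the number of peaks it was divided into ranged from 2 to 5. The second, 9591 bp from 1664253 to 1673843, had 4 or 5 peaks per library covering 8641 to 9230 bp. The third was the region from 9272 to 17783 (8512 bp), covered over 7730, 7738 and 6850 bp in resistant and 8291, 8376 and 8014 bp in susceptible replicates 1 to 3. The groups did not overlap at this region, and it is taken up again below. They were followed by 182925 to 191129 (8205 bp) and 2092386 to 2100288 (7903 bp). In these 5 regions, 73.1 to 87.5% of the bases were covered in all 6 libraries.

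The score is the one deposited with each peak and was read as -10 times the log10 of the peak caller's p-value. It reflects how clearly a peak exceeded its input and rises with read depth. Ranked within their own lists, peaks of chromosome 25 had a median percentile of 73.6, 72.9 and 70.4 in resistant and 71.9, 73.2 and 71.3 in susceptible replicates 1 to 3. The medians were 52.9 to 55.0 on chromosome 24 and 54.2 to 57.0 on chromosome 26. Between 24.01 and 25.97% of the peaks on chromosome 25 belonged to the highest-scoring 10% of their list, compared with 7.88 to 9.50% on chromosome 24 and 9.04 to 11.01% on chromosome 26. Width and score are not independent measures of a peak.

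Scores piled up at a single value. Exactly 3100 was given to 44 to 52 peaks of chromosome 25 per library, out of 1333 to 1612 in a whole list, so these peaks could not be ranked among themselves. The highest printed score of each library lay above it and at a different place each time. Whether those peaks were stronger than the ones at 3100 cannot be read from the scores. Percentiles at this end of a list share that limit. In the resistant libraries these peaks were at 1525051 to 1527479 (3122.69), 404786 to 407730 (3127.29) and 1779325 to 1782541 (3174.48), for replicates 1 to 3. In the susceptible libraries they were at 243678 to 245724 (3220.05), 919041 to 920040 (3190.58) and 193279 to 195677 (3201.56).

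A score of 3100 or more in all 6 libraries was reached by 26 of the 709 regions (3.67%), against 7 of 1552 on chromosome 24, 7 of 1476 on chromosome 26 and 807 of 90181 over the genome (0.895%). Of the 26 regions, 18 lay within 10 kb of another. The longest run held 5 of them, from 1664253 to 1705319, a span of 41.1 kb. Peaks covered 31.3, 32.3 and 31.4 kb of it in resistant and 32.0, 32.6 and 31.8 kb in susceptible replicates 1 to 3, or 76.2 to 79.5% of its length. The groups overlapped there and the range over all libraries was narrow. A run of 3 regions from 2092386 to 2107260 was covered at 85.6 to 90.3%. These runs were found after the values were seen.

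Most regions of chromosome 25 were common to all libraries. A peak in every list was found in 441 of 709 regions (62.2%, 95% Clopper-Pearson interval 58.5 to 65.8%, counting error only). The share was 40.9% (38.4 to 43.3%) on chromosome 24, 45.7% (43.1 to 48.2%) on chromosome 26 and 33.5% over all chromosomes. Regions with a peak in a single library numbered 78 of 709 on chromosome 25, 295 of 1552 on chromosome 24 and 244 of 1476 on chromosome 26. Regions in all 6 lists had a median length of 1217 bp and those in 1 list 429.5 bp. Merging peaks of more lists lengthens a region by construction, and the part of that in this difference was not tested. By length, regions in all 6 lists made up 81.5% of the DNA covered in any library on chromosome 25, 60.1% on chromosome 24 and 64.8% on chromosome 26.

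**Figure D4:**
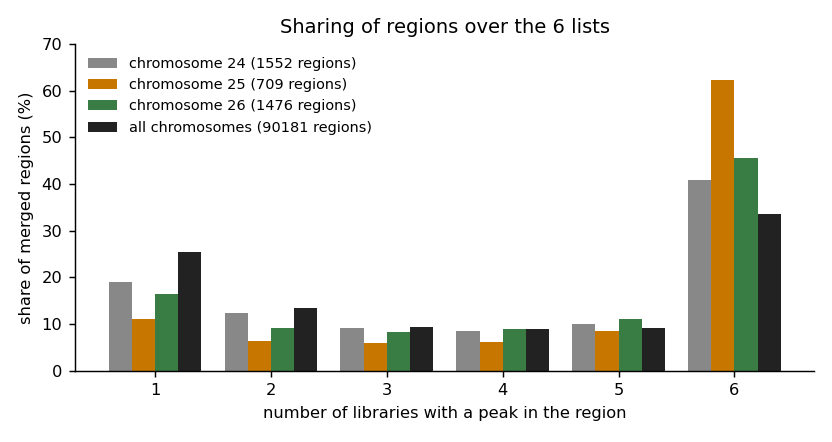
Share of merged regions (vertical axis, %) by the number of libraries with a peak in them (horizontal axis) on chromosomes 24, 25 and 26 and over all chromosomes. On chromosome 25, 62.2% of 709 regions have a peak in all 6 libraries.

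At the level of single bases, 534 kb of chromosome 25 lay in a peak of all 6 libraries, which was 57.5% of the bases covered in any and 24.4% of the measured length. The corresponding values were 526 kb and 8.32% of the length on chromosome 24, and 607 kb and 11.4% on chromosome 26. The Jaccard index of a pair of libraries, the bases covered in both divided by those covered in either, was 0.785 ± 0.00582 (SD, n = 15 pairs) on chromosome 25. It was 0.656 ± 0.00789 on chromosome 24 and 0.682 ± 0.00952 on chromosome 26. The pairs share libraries and are not independent. Overlap between lists, in bases or in regions, also rises with the share of a chromosome that they cover. The part of that in these values was not tested.

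Peak edges were placed about as closely on chromosome 25 as elsewhere. Of its 441 regions in all lists, 290 (65.8%) had exactly 1 peak in each library, against 74.6% on chromosome 24 and 72.7% on chromosome 26. In those 290, the 6 peak starts spanned a median of 119 bp and the 6 ends a median of 137.5 bp. The same values were 128 and 138 bp on chromosome 24, and 126 and 140 bp on chromosome 26. The regions in 1 list scored low, with median score percentiles of 8.40 to 22.3 in the 6 libraries, while regions in all lists had 79.9 to 83.3. Each region entered with a library's highest-scoring peak in it, which raises the value where a library had more than 1. The regions in 1 list were spread over the libraries, with 21 in susceptible replicate 2, 15 in resistant replicate 2 and 14 in susceptible replicate 3. Resistant replicates 1 and 3 had 10 each and susceptible replicate 1 had 8.

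The design asks whether methylation differed between resistant and susceptible birds. No such difference was detected for chromosome 25 as a whole. Resistant libraries had 332 ± 6.70 kb of peaks per Mb and susceptible libraries 332 ± 13.6 (SD, n = 3 each), a difference of 0.714 (two-sided exact permutation test, p = 0.9, adjusted p = 1 over 31 chromosomes). Resistant libraries had 709 ± 30.2 and susceptible libraries 684 ± 33.3 peaks (exact p = 0.4, adjusted p = 0.919). Their peaks were on average 1028 ± 65.7 and 1063 ± 83.1 bp wide, in the same order (exact p = 0.6, adjusted p = 0.6). As a share of each library's own covered length, chromosome 25 held 1.63 ± 0.0382% and 1.64 ± 0.0637% (exact p = 0.8, adjusted p = 0.996). With 3 libraries against 3, the smallest p this test can give is 0.1. The groups overlapped in coverage on chromosome 25, and coverage without overlap was found on 0 of 31 chromosomes (0%).

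Nor was a group difference detected relative to chromosomes 24 and 26. Coverage of chromosome 25 minus the mean of chromosomes 24 and 26 was 167 ± 8.88 kb per Mb for the resistant group and 168 ± 7.68 for the susceptible group (n = 3 each, two-sided exact permutation test, p = 0.8). The sign of the coverage difference was not stable. With all lists cut to 1 length by score it was -2.58 kb per Mb, without susceptible replicate 1 it was -5.65, without resistant replicate 3 it was -3.00, and without susceptible replicate 2 it was -0.0968. In replicates 1 and 2 alone it was 4.18 kb per Mb (n = 2 each, exact p = 0.667, where the smallest possible p is 0.333). The width difference turned to 11.8 bp without susceptible replicate 3. The difference of 25 in peak number was 9.33 with lists cut to 1 length, 9.83 without susceptible replicate 3 and 13.7 without resistant replicate 1. It was 42.8 without susceptible replicate 2 and 42.2 without resistant replicate 3. In replicates 1 and 2 alone the resistant minus susceptible differences were 27 peaks, -25.4 bp in mean width, -0.0314 percentage points in the share of covered length and -1.34 kb per Mb relative to chromosomes 24 and 26.

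Windows gave the same picture. In a limma model fitted to log2(covered kb + 1) of 6022 windows of the genome, 0 windows were called at an adjusted p under 0.05 (0%), and 178 had an unadjusted p under 0.05. Of the 22 windows of chromosome 25, the last of them 89.4 kb long, 0 were called and 0 had an unadjusted p under 0.05. Their log2 differences, resistant minus susceptible, ran from -0.09 to 0.09, with 12 above and 10 below 0. The 95% intervals of single windows reached from -0.38 to 0.42 at their widest, and the margin on either side of a difference had a median of 0.14. The window from 1800001 to 1900000 had the lowest difference, -0.09 ± 0.07 (SE, limma adjusted p = 0.9998), and that from 1400001 to 1500000 the highest, 0.09 ± 0.09.

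**Figure D5:**
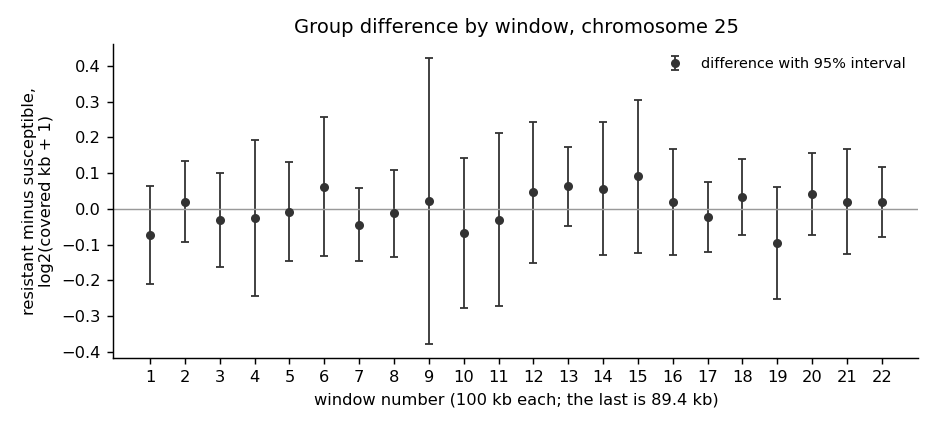
Difference between resistant and susceptible libraries in log2(covered kb + 1) for each window of chromosome 25, numbered from its start, with 95% intervals from limma (n = 3 libraries per group). The intervals of all 22 windows include 0.

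The groups failed to overlap in 1 of the 22 windows, the first, which runs from 1 to 100000. There peaks covered 21.4, 22.9 and 22.8 kb in resistant and 23.3, 23.7 and 23.7 kb in susceptible replicates 1 to 3. All susceptible values were higher; the mean difference, resistant minus susceptible, was -1.22 kb, with a log2 difference of -0.07 ± 0.06 (SE, limma adjusted p = 0.9998). Over the genome, susceptible libraries were higher without overlap in 3.22% of windows and resistant libraries in 4.25%, 7.47% in all, so 1 of 22 is near the background. With only the peaks above the pooled median score, 0 windows of the chromosome separated the groups, where the genome share was 7.95%. With 1 library left out, the count was 1 to 4 of 22 and the genome share 15.5 to 18.5%. It was 4 when resistant replicate 1 or susceptible replicate 3 was omitted, 3 when resistant replicate 2 or susceptible replicate 1 was omitted, and 2 when susceptible replicate 2 was omitted. In replicates 1 and 2 alone it was also 4, against a genome share of 30.8%. Resistant libraries were higher in 3 of the 4 windows in each of the settings that gave 4, so the direction differed from that of the first window, which was higher in susceptible libraries.

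Among the 709 regions, 5 had a peak in all 3 resistant and in 0 susceptible libraries, and 3 showed the reverse. Where exactly 3 libraries had a peak, in 42 regions, these 8 were 19.0% (Clopper-Pearson interval 8.60 to 34.1%, counting error only). Over the genome 9.46% of such regions followed the groups, 6.08% as resistant-only and 3.38% as susceptible-only regions. The interval of chromosome 25 includes that background. Its regions come from the same libraries and are not independent, so the interval cannot decide whether the shares differ. On chromosome 24 it was 9 of 143 and on chromosome 26 it was 11 of 124. With peaks up to 500 bp apart joined, 3 of 21 regions were resistant-only and 2 of 21 susceptible-only, against 6.26 and 3.29% over the genome. Lists cut to 1 length by score gave 6 of 38 (15.8%) and 3 of 38 (7.89%), against 4.44 and 5.01%. The pooled median score as minimum gave 4 of 30 (13.3%) and 2 of 30 (6.67%), against 5.33 and 3.52%. A required cover of at least 50% of the region gave 5 of 55 (9.09%) and 3 of 55 (5.45%), against 5.76 and 3.53%. In fixed windows of 1000 bp, with a library counted where it covered at least 500 bp, 3 of 72 followed each direction (4.17%). The genome shares there were 4.19% for resistant-only and 4.51% for susceptible-only windows. In replicates 1 and 2 alone, 16 of 64 regions with a peak in exactly 2 libraries were resistant-only (25%; 21.2% over the genome) and 7 were susceptible-only (10.9%; 12.8%). With 1 library left out, 7 to 10 regions were resistant-only, or 12.3 to 21.3% of those in as many libraries, against 9.30 to 14.1% over the genome. Susceptible-only regions then numbered 4 to 8, or 8.89 to 17.0%, against 5.21 to 8.40%.

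The 8 regions were 284 to 906 bp long. In each, the lowest of the 3 score percentiles, 1 per library, was at or below 32.5. The resistant-only region from 733143 to 734040 (898 bp) had scores of 189.77, 203.32 and 136.42 in replicates 1 to 3, at the percentiles 50.8, 51.2 and 32.5 of their lists, and a susceptible peak lay at a distance of 362 bp. Also resistant-only were 931824 to 932384, 117496 to 117976, 1395463 to 1396058 and 1888657 to 1888940. Of these, 931824 to 932384 (561 bp) had a susceptible peak at a distance of only 106 bp, and 117496 to 117976 (481 bp) was the most isolated, at 1713 bp. In these 5 regions the lowest of the 3 score percentiles was 10.8 to 32.5.

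The susceptible-only region with the highest rank ran from 956556 to 957080 (525 bp). Its scores were 136.53, 140.2 and 137.82 in replicates 1 to 3, at the percentiles 32.5, 35.6 and 34.2. A resistant peak came no nearer than 5588 bp, the farthest among the 8. The other two were 288117 to 288620 (504 bp), with a resistant peak 159 bp away, and 552082 to 552987 (906 bp), whose lowest score percentile was 5.29. None of the 8 had all of its 3 peaks in the upper part of its list, since the highest of the lowest percentiles was 32.5. Single peaks ranked higher, up to the percentile 53.6 in resistant replicate 1 at 931824 to 932384. A peak just above the calling threshold in only 1 group cannot be told apart from a gain or loss of methylation. How far the 8 regions are of this kind was not tested.

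In the 441 regions with a peak in every library, the score rank and the extent of the peaks could be compared. A region's score in a library is that of the library's highest-scoring peak in it. Score percentiles did not overlap between groups in 27 regions with resistant libraries higher and in 14 with susceptible libraries higher, or 6.12 and 3.17%, against 5.46 and 2.92% of the 30195 such regions of the genome. Covered length did not overlap in 20 regions with resistant and 17 with susceptible libraries higher, or 4.54 and 3.85%, against 3.25 and 5.43% over the genome. The shares for score percentile lie near the background. In covered length, the larger share was that of resistant libraries on chromosome 25 and that of susceptible libraries over the genome. The order on chromosome 24 (resistant 2.84%, susceptible 4.42%) and chromosome 26 (resistant 3.56%, susceptible 4.30%) was that of the genome. This difference in order was not tested, and no test was made per region. In replicates 1 and 2 alone, 104 and 62 of 504 regions separated the groups in score percentile (20.6 and 12.3%), against 20.7 and 12.4% over the genome. In covered length it was 74 and 87 regions (14.7 and 17.3%), against 15.4 and 18.4%.

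The regions with the greatest difference in mean score percentile, picked after the values were seen, were narrow. At 1846745 to 1847158 (414 bp) the scores were 293.75, 914.07 and 859.89 in resistant and 155.59, 86.3 and 123.37 in susceptible replicates 1 to 3. The percentiles were 66.9, 88.4 and 87.04 against 38.99, 5.47 and 28.01, so the groups did not overlap, although the widths overlapped, at 210 to 414 bp against 213 to 252 bp. At 2014499 to 2014762 (264 bp) the scores were 413.69, 624.69 and 1131.28 in resistant and 182.96, 117.64 and 136.09 in susceptible libraries. The percentiles were 75.98, 82.7 and 90.3 against 46.3, 25.9 and 33.4, again without overlap, while the widths, 214 to 256 and 229 to 264 bp, overlapped. In the opposite direction, the region from 832884 to 833522 (639 bp) had 191.2, 206.38 and 105.97 in resistant and 282.63, 503.19 and 429.21 in susceptible libraries, at the percentiles 51.2, 51.9 and 18.4 against 62.96, 80.1 and 75.6.

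In covered length, the greatest separation with susceptible libraries higher was in the region near the start of the chromosome, 9272 to 17783, where the mean difference, resistant minus susceptible, was -788 bp. Its scores did not follow this order, with 3100, 2926.51 and 2543.99 in resistant and 1998.93, 1902.11 and 3100 in susceptible replicates 1 to 3, at the percentiles 98.7, 97.02 and 96.3 against 95.1, 95.4 and 98.6. It lies in the first window, the one in which the groups did not overlap, so both observations share these peaks. With resistant libraries higher, the region from 500653 to 504200 (3548 bp) was covered over 3332, 2699 and 2577 bp in the resistant and over 2176, 1830 and 2550 bp in the susceptible libraries. Resistant replicate 3 and susceptible replicate 3 nearly met there.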

How the data were processed

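MeDIP and input libraries of chicken liver were sequenced from both fragment ends by Illumina HiSeq, per the labels' protocols. Tools named in the submitters' processing notes are cutadapt and Bowtie2, with galGal4 as build. The authors deposited 1 list of peaks per MeDIP library, called with MACS against its own input, as list and peak names state. The sources used here give no versions, read filters or duplicate handling. In the deposited lists the score ran from 80 to 3233.06, which was read from its values as -10 times the log10 of the caller's p-value. It rises with depth, which is unknown, so libraries were compared by a score's rank within its list, and scores are printed as deposited; no counting interval could be given for coverage.

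Starts were counted from 1. Chromosome length was the highest peak end in any list, a lower bound. Regions were merged from overlapping or touching peaks of the 6 lists. A region's score and percentile in a library were those of the library's highest-scoring peak in it. Group means were compared with two-sided exact permutation tests, adjusted by Benjamini-Hochberg over 31 chromosomes, and windows with limma 3.58.1 (R 4.3.3) on log2(covered kb + 1), keeping windows with a mean of at least 1 kb, with adjustment over all windows of the genome. Other steps used Python 3.11.15 and scipy 1.17.1, and the region and limma steps were tested on simulated data. The differences put into those data were large and clear, so these tests do not show whether small ones would be found. Named regions were the 5 widest regions, peaks and stretches without a peak, the highest score of each library, the 3 most and least covered windows, all group-only regions and windows without overlap. The comparison of scores and covered length within regions common to all lists, and the runs of regions with score 3100, were added later. The members, lists and tests were chosen with earlier results of these data known. Alternatives tried were only peaks scoring at least 193.59 (median of all peaks), lists shortened to their 55599 best peaks, leaving out libraries, windows of 50 kb, another pseudocount (0.1 kb) and filter, joining peaks up to 500 bp apart, a cover of at least 50% of the region, and fixed windows of 1000 bp covered over at least 500 bp. The input libraries come with no peak list of their own, and genes, promoters, repeats and sequences on galGal4 are not analysed here.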

Additional observations from a re-analysis of the deposited data

How the results depend on the processing

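Of the values recomputed, 81 held their sign or size, 12 took the opposite sign and 50 moved, which for a count means by over 1.5 times and for the share of regions in every library means out of its 95% interval. Differences are resistant minus susceptible on chromosome 25. Coverage was -2.58 kb per Mb with equal list lengths and -5.65 to 7.89 with 1 library left out. Mean width was -72.9 to 11.8 bp with 1 library left out. The share of covered length was 0.00197 percentage points at the pooled median score, 0.0162 with equal list lengths and -0.0330 to 0.0243 with 1 library left out. Coverage minus that of chromosomes 24 and 26 was 0.786 kb per Mb at the pooled median score and -5.36 to 3.51 with 1 library left out, positive without resistant replicate 1 or susceptible replicate 3. The difference in peak number kept its sign, at 9.33 to 42.8. By limma, 0 windows of chromosome 25 were called under every alternative; over the genome 1 was called in the 4 libraries with low Z coverage, and 0 to 1 with 1 library left out (1 without resistant replicate 3). Windows whose groups did not overlap numbered 0 at the pooled median score, 2 with 50 kb windows, 4 in the 4 libraries with low Z coverage and 1 to 4 with 1 library left out, and the genome share in either direction rose from 7.47 to 30.8% as libraries were removed. Resistant libraries were higher in 3 of the 4 windows in the 4 libraries, and in 1 of the 2 of 50 kb (genome share 8.09%). Resistant-only regions numbered 3 with peaks joined, 3 in fixed windows, 16 in the 4 libraries and 7 to 10 with 1 left out. Susceptible-only regions numbered 7 in the 4 libraries and 4 to 8 with 1 left out. Fewer libraries loosen the definition by construction. With peaks joined the resistant-only and susceptible-only shares were 14.3 and 9.52%, against 6.26 and 3.29% over the genome. In fixed windows they were 4.17% each, against 4.19 and 4.51%. As an alternative chosen after seeing the data, regions in every list were compared without some libraries. By score percentile, resistant libraries were higher without overlap in 104 in the 4 libraries and in 39 to 65 with 1 left out, and susceptible libraries in 62 and in 20 to 45. By covered length the counts were 74 and 28 to 54, and 87 and 30 to 61. With 1 left out, the shares by score percentile were 8.44 to 13.89% with resistant and 4.42 to 9.91% with susceptible libraries higher. Over the genome they were 8.79 to 14.88% and 4.85 to 8.08%. By covered length the shares were 5.98 to 11.56% and 6.61 to 13.03%, against 5.61 to 11.05% and 8.205 to 14.48% over the genome. Regions with a peak in every library were 68.9% in the 4 libraries, 68.0% with peaks joined, 56.8% with a cover of at least 50% and 57.9% in fixed windows. No cause of these changes was tested. No paired analysis was possible because the labels used here link no resistant sample to a susceptible one. Since depth is unknown, a missing peak does not show missing methylation.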
